A study of Homo sapiens with 4 samples.

Results

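Protein kinase C (PKC) and protein kinase D (PKD) are serine/threonine kinases that respond, directly or in relay, to the membrane lipid diacylglycerol. The genes described here are the 10 listed for these families, taken by gene name but with earlier results of these data known. They are PRKCA and PRKCB of the classical class, and PRKCD, PRKCE, PRKCH and PRKCQ of the class that needs diacylglycerol without calcium (nPKC). The others are PRKCI and PRKCZ of the atypical class, and PRKD2 and PRKD3 of the PKD family. All 10 had values, out of 11650 genes in all. They were measured by RNA sequencing in the uveal melanoma line 92.1 (an established line from a tumour of the pigment cells of the eye), in 2 libraries of a resistant derivative (Res) and 2 libraries of the parental line (Ctrl). The labels name neither the agent of the resistance nor its dose, nor how the resistant cells were picked, and they do not say that replicates are separate cultures. The p-values therefore rest on a spread between libraries that may be technical. The titles name 92.1 for all 4 libraries while the cell line label counts up from sample to sample, and all were treated as 92.1.

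Classical PKCs need calcium and diacylglycerol to become active, nPKCs need diacylglycerol without calcium, and atypical PKCs need neither and act in protein complexes. PKDs bind diacylglycerol too and are switched on by nPKCs through phosphorylation of their activation loop. In most uveal melanomas a G protein alpha subunit of the Gq family is locked in its active state by mutation, which keeps phospholipase C beta making diacylglycerol. PKC delta and PKC epsilon then pass the signal through the exchange factor RASGRP3 to RAS and the MAP kinases, which is why PKC inhibitors have been tried against this tumour.

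The promoters of 3 of the genes are shown because PRKD2 and PRKCH were lower in both Res libraries with no overlap and PRKD3, the closest listed relative of PRKD2, was not. Each stretch is a RefSeq window on GRCh38.p14 that runs up to and past an annotated start, 5′ to 3′ on the gene's strand, in lower case with each GC box (GGGCGG or its reverse complement CCGCCC, the kind of site that SP1 binds) in capitals.
PRKD2, chr19:46717065-46717364, minus strand, the more upstream of 2 annotated starts: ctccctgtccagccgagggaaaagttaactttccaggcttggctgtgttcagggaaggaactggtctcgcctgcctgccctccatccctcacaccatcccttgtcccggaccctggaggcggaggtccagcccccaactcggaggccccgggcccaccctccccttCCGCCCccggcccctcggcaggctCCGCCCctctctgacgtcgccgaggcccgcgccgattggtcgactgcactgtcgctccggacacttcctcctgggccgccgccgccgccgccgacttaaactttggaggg
PRKD3, chr2:37324784-37325083, minus strand: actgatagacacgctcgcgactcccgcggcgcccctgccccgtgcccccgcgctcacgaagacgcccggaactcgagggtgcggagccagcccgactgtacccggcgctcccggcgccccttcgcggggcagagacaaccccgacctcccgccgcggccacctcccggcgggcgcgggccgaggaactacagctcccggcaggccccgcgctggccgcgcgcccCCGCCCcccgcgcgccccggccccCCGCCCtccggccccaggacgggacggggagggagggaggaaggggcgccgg
PRKCH, chr14:61321329-61321628, plus strand: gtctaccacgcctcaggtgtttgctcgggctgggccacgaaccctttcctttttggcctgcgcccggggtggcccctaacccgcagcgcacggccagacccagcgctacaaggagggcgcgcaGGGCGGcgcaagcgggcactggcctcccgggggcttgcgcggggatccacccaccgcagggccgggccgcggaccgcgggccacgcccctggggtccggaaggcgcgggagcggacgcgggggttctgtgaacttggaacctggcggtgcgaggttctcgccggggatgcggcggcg
All 10 genes matched the RefSeq table, with 16 windows of 300 bases. The PRKCH window, from 61321329, lies inside the gene's span, which begins upstream at 61187559 by GENCODE release 29. At least 1 GC box stood in 13 of the 16 windows, while 45.0% of all 35116 windows held one. By gene, 9 of the 10 had one, PRKCQ being the exception, but a gene with several windows has several chances. Matches to the GC box also depend on GC content, which was not adjusted for. The first windows of the 10 genes had a median GC content of 74.7%, and their further windows ran from 57.7% to 76.7%. Over all windows, first or not, the median was 58.7%, so the 2 medians are not of like sets. Searched on both strands, the CCAAT box (CCAAT) stood in 4 of the 16 windows, belonging to PRKCQ, PRKCZ and PRKD2, and in 34.6% of all windows. The TPA response element (TGACTCA), which AP-1 binds after phorbol ester treatment, stood in 0 of the 16 windows and in 4.95% of all windows. The E-box CACGTG, a form that the pigment cell factor MITF binds, stood in 0 of the 16 and in 7.26% of all. The palindrome TGACGTCA, the cAMP response element, stood in 1 of the 16, an internal start of PRKCZ, and in 1.85% of all. These are matches of letters in these windows and say nothing on whether a factor binds.

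No PKC or PKD gene passed the test between resistant and parental cells. Values are FPKM, a fragment count relative to transcript length and to the mapped fragments of the library, and differences are log2 fold changes of FPKM + 1, Res over Ctrl, from limma. Of the 9 listed genes that averaged 1 FPKM or more across libraries, 0 had an adjusted p under 0.05, where 0.0584% of the 10271 genes tested did, and 0 had an unadjusted limma p under 0.05, where 16.2% of all genes did. PRKCQ lay under that filter. The 9 log2 fold changes ran from -0.53 for PRKCB to 0.32 for PRKD3, with 7 below 0 and a median of -0.26. Over all genes tested, 58.6% lay below 0 and the median was -0.08. Of the 10 genes, 5 (PRKCD, PRKCH, PRKCQ, PRKCZ and PRKD2) were lower in both Res libraries than in both Ctrl libraries, 4 of them among the 9 tested, and 0 were higher in both. For all genes tested, 31.8% were lower in both Res libraries and 19.1% were higher in both. In these bulk libraries a lower share of cells with a transcript and less of it per cell cannot be told apart.

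**Figure D1:**
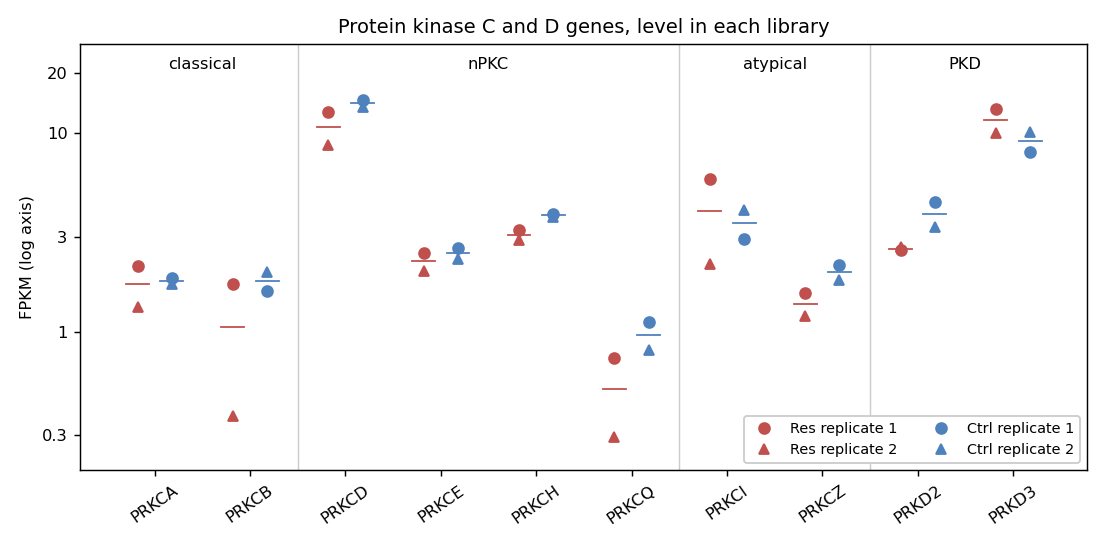
FPKM of each gene on a log axis, with Res libraries (red) left of Ctrl libraries (blue), circles for replicate 1, triangles for replicate 2 and a bar for the group mean (n = 2 each). PRKCD and PRKD3 stand above 8 FPKM in every library, and the Res points of PRKCB and PRKCI lie far apart.

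PRKCD and PRKD3 were the most abundant members, and the order of the pair differed between the groups. In Res libraries PRKD3 averaged 11.6 FPKM and PRKCD 10.7 FPKM, with overlapping libraries, while in Ctrl libraries PRKCD averaged 14.1 FPKM and PRKD3 9.05 FPKM, with no overlap. Below them in the Res group came PRKCI, PRKCH, PRKD2, PRKCE, PRKCA, PRKCZ, PRKCB and PRKCQ, and of the neighbours in this order PRKCD and PRKCI, PRKCH and PRKD2, and PRKD2 and PRKCE, did not overlap in their libraries, though PRKD2 and PRKCE, and PRKCH and PRKD2, lay closer to each other than the libraries of PRKCE and of PRKCH did. In the Ctrl group the order was PRKD2, PRKCH, PRKCI, PRKCE, PRKCZ, PRKCB, PRKCA and PRKCQ, with a gap free of overlap after PRKD3, PRKCI, PRKCE and PRKCA. By mean FPKM over the 4 libraries PRKCD stood at percentile 76.7 and PRKD3 at percentile 72.2 of all 11650 genes, and the other 8 between percentile 7.51 (PRKCQ) and percentile 43.0 (PRKCI).

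PRKCA, which encodes PKC alpha, a widely expressed classical isoform, stood at 2.13 and 1.32 FPKM in Res libraries and at 1.86 and 1.73 FPKM in Ctrl libraries. The Ctrl values lay between the Res values. Its log2 fold change was -0.05 ± 0.21 (SE; 95% interval -0.58 to 0.47, limma adjusted p = 0.918), and the sign turned with median-of-ratios scaling (0.01) and without Res replicate 2 (0.16). PRKCB encodes PKC beta, whose beta I and beta II forms arise from this gene by splicing and are not separated in gene values. It stood at 1.73 and 0.374 FPKM in Res libraries and at 1.60 and 2.00 FPKM in Ctrl libraries. Res replicate 1 lay inside the Ctrl range and Res replicate 2 far below it. The log2 fold change of PRKCB was -0.53 ± 0.35 (SE; 95% interval -1.40 to 0.35, limma adjusted p = 0.491), and it was -1.02 without Res replicate 1 and -0.03 without Res replicate 2. With a pseudocount of 0.1 and all 4 libraries it was -1.02 ± 0.67 (SE, limma adjusted p = 0.494). PRKCA (ENSG00000154229.11_3) lies on chromosome 17 from 66302636 to 66810743 and PRKCB (ENSG00000166501.12_3) on chromosome 16 from 23835946 to 24220611, by GENCODE release 29 on GRCh38, which is the source of the other positions too.

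PRKCD, which encodes PKC delta, an nPKC of the uveal melanoma signalling route, stood at 12.8 and 8.65 FPKM in Res libraries and at 14.6 and 13.5 FPKM in Ctrl libraries. Each Res library lay below each Ctrl library, and the gap between the Res libraries was larger than that between Res replicate 1 and the nearer Ctrl library. The log2 fold change was -0.38 ± 0.23 (SE; 95% interval -0.97 to 0.20, limma adjusted p = 0.454), with -0.64 without Res replicate 1 and -0.13 without Res replicate 2. PRKCE, which encodes PKC epsilon, the other nPKC of that route, stood at 2.49 and 2.02 FPKM in Res libraries and at 2.64 and 2.31 FPKM in Ctrl libraries. The groups overlapped, and the log2 fold change was -0.10 ± 0.18 (SE; 95% interval -0.56 to 0.37, limma adjusted p = 0.818), turning to 0.0065 without Res replicate 2. PRKCD (ENSG00000163932.13_3) lies on chromosome 3 from 53156009 to 53192717 and PRKCE (ENSG00000171132.13_2) on chromosome 2 from 45651345 to 46187990.

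PRKCH encodes PKC eta, an nPKC known from epithelial differentiation, and its replicates lay close together in both groups. It stood at 3.22 and 2.90 FPKM in Res libraries and at 3.90 and 3.79 FPKM in Ctrl libraries. The groups did not overlap, yet the log2 fold change of -0.26 ± 0.18 (SE; 95% interval -0.70 to 0.19, limma adjusted p = 0.51) did not pass. PRKCQ encodes PKC theta, best known from T cell receptor signalling and skeletal muscle. It stood at 0.733 and 0.296 FPKM in Res libraries and at 1.11 and 0.805 FPKM in Ctrl libraries, the lowest member in every library. The groups did not overlap. With no filter its log2 fold change was -0.38 ± 0.20 (SE, limma adjusted p = 0.389). PRKCH (ENSG00000027075.14_3) lies on chromosome 14 from 61187559 to 61550976 and PRKCQ (ENSG00000065675.14_2) on chromosome 10 from 6427143 to 6580301. PRKCH shares exonic bases with TMEM30B on the opposite strand (356 bases) and with AL355916.2 on the same strand (419 bases), which counting by strand could not separate. Neither was analysed here.

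PRKCI encodes PKC iota, the kinase of the PAR cell polarity complex, and its Res libraries were the farthest apart of any member on the log2(FPKM + 1) scale. It stood at 5.87 and 2.20 FPKM in Res libraries and at 2.92 and 4.08 FPKM in Ctrl libraries. Res replicate 1 was above both Ctrl libraries and Res replicate 2 below both. The log2 fold change was 0.07 ± 0.40 (SE; 95% interval -0.93 to 1.08, limma adjusted p = 0.944), with -0.48 without Res replicate 1, 0.62 without Res replicate 2 and -0.12 without Ctrl replicate 1. A processed copy, PRKCIP1, exists in the genome, so the level of PRKCI is uncertain. PRKCZ, which encodes PKC zeta, the second atypical isoform, stood at 1.56 and 1.20 FPKM in Res libraries and at 2.16 and 1.83 FPKM in Ctrl libraries. The groups did not overlap, and the log2 fold change was -0.33 ± 0.18 (SE; 95% interval -0.79 to 0.12, limma adjusted p = 0.417), with -0.505 at a pseudocount of 0.1. PRKCZ shares 590 exonic bases with FAAP20 on the opposite strand, and without a stated use of strand in counting the reads of the pair cannot be told apart. FAAP20, a DNA repair gene, stood at 3.32 and 4.47 FPKM in Res libraries and at 2.66 and 2.65 FPKM in Ctrl libraries, the other direction. PRKCI (ENSG00000163558.12_2) lies on chromosome 3 from 170222365 to 170305981 and PRKCZ (ENSG00000067606.16_3) on chromosome 1 from 2050470 to 2185395.

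PRKD2, which encodes PKD2, a kinase of the trans-Golgi network and of receptor signalling, had the lowest adjusted p of the tested members. It stood at 2.56 and 2.65 FPKM in Res libraries and at 4.47 and 3.36 FPKM in Ctrl libraries. The Res libraries were close to each other and below both Ctrl libraries. Its log2 fold change was -0.44 ± 0.20 (SE; 95% interval -0.94 to 0.07, limma adjusted p = 0.351), with -0.27 without Ctrl replicate 1 and -0.60 without Ctrl replicate 2. PRKD3, which encodes PKD3, the PKD that lacks the C-terminal PDZ-binding tail of its relatives, stood at 13.2 and 9.94 FPKM in Res libraries and at 8.03 and 10.1 FPKM in Ctrl libraries. Res replicate 1 was the highest, and Res replicate 2 lay just below Ctrl replicate 2. The log2 fold change was 0.32 ± 0.22 (SE; 95% interval -0.24 to 0.88, limma adjusted p = 0.514), with 0.13 without Res replicate 1, 0.51 without Res replicate 2 and 0.17 without Ctrl replicate 1. With median-of-ratios scaling or quantile normalization both Res libraries of PRKD3 stood above both Ctrl libraries. The share of all genes that did so under those scalings was not computed. PRKD3 shares 265 exonic bases with NDUFAF7 on the opposite strand, which stood at 6.20 and 4.42 FPKM in Res libraries and at 6.79 and 5.86 FPKM in Ctrl libraries. PRKD2 (ENSG00000105287.12_4) lies on chromosome 19 from 46674275 to 46717127 and PRKD3 (ENSG00000115825.9_2) on chromosome 2 from 37250502 to 37324808.

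**Figure D2:**
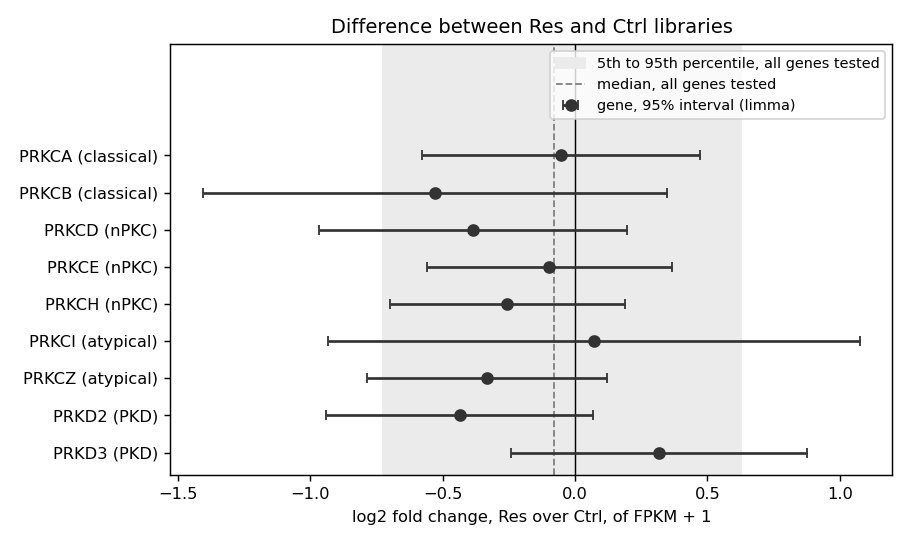
Log2 fold change of FPKM + 1, Res over Ctrl, for the 9 tested genes with the 95% interval from limma. The grey band spans the 5th to 95th percentile of all 10271 genes tested (-0.727 to 0.625), all 9 points fall inside it, and all 9 intervals include 0.

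PRKD1, which encodes the founding member PKD1 and is not among the 10 listed genes, had values as well. It stood at 1.67 and 1.33 FPKM in Res libraries and at 1.06 and 1.24 FPKM in Ctrl libraries, higher in both Res libraries (log2 fold change 0.22 ± 0.17 SE, limma adjusted p = 0.552). The ratio of PRKD3 to PRKD2 within a library is not altered by 1 scaling factor per library, though quantile normalization can alter it. In FPKM this ratio was 5.16 and 3.74 in Res libraries and 1.80 and 3.00 in Ctrl libraries. The Res ratios were both above the Ctrl ratios, 1.89-fold by the mean of logs, and a two-sided exact permutation test gave p = 0.333, the smallest that 2 against 2 libraries allow. The ratio of PRKD3 to PRKCD was 1.03 and 1.15 in Res libraries and 0.549 and 0.745 in Ctrl libraries (exact permutation p = 0.333). These were 2 of 6 ratios computed, all chosen after the values were seen, and the permutation p adjusted over the 6 was 0.4 for both.

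By class, the nPKC genes were the ones whose summed level did not overlap between the groups. Their 4 values summed to 19.2 and 13.9 FPKM in Res libraries and to 22.3 and 20.4 FPKM in Ctrl libraries (log2 ratio of group means -0.37, no overlap). Most of this sum was PRKCD, at 12.8 and 8.65 FPKM in Res libraries and 14.6 and 13.5 FPKM in Ctrl libraries, while PRKCE alone overlapped. Of all single genes tested, 31.8% were lower in both Res libraries. The classical pair summed to 3.85 and 1.70 FPKM in Res libraries and to 3.45 and 3.73 FPKM in Ctrl libraries (log2 ratio -0.37, overlapping). The atypical pair summed to 7.43 and 3.40 FPKM in Res libraries and to 5.08 and 5.91 FPKM in Ctrl libraries (log2 ratio -0.02, overlapping). The PKD pair summed to 15.8 and 12.6 FPKM in Res libraries and to 12.5 and 13.4 FPKM in Ctrl libraries (log2 ratio 0.13, overlapping). The class sums are given as values without a test. All 10 genes together summed to 46.3 and 31.6 FPKM in Res libraries and to 43.3 and 43.5 FPKM in Ctrl libraries, so that the Res libraries lay on either side of the Ctrl libraries.

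**Figure D3:**
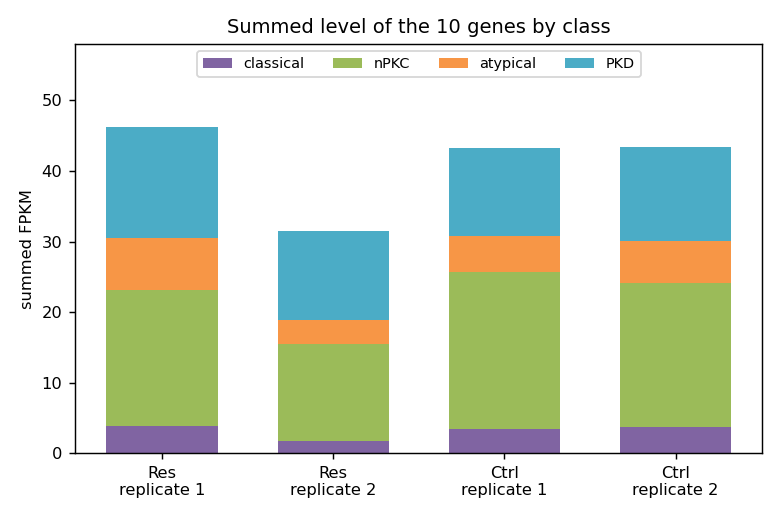
Summed FPKM of the 10 genes in each library, stacked by class from 0. Res replicate 2 has the lowest bar, at 31.6 FPKM, and the Ctrl bars stand at 43.3 and 43.5 FPKM.

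As shares of the summed level, PRKD3 and PRKCD stood apart most. PRKD3 took 28.5% and 31.5% of the sum in Res libraries and 18.5% and 23.1% in Ctrl libraries, higher in both Res libraries by 9.16 percentage points on average. PRKCD took 27.6% and 27.4% in Res libraries and 33.8% and 31.1% in Ctrl libraries, lower in both Res libraries. PRKCQ and PRKCZ also had lower shares in both Res libraries, and the other 6 genes had overlapping shares. For PRKCQ the shares were 1.59% and 0.937% in Res libraries against 2.57% and 1.85% in Ctrl libraries. In FPKM, 31.8% of all genes tested were lower in both Res libraries and 19.1% higher in both, so a lack of overlap was common. The nPKC genes took 41.6% and 43.9% of the sum in Res libraries and 51.5% and 47.0% in Ctrl libraries, and the PKD pair 34.0% and 39.9% in Res libraries and 28.8% and 30.9% in Ctrl libraries. Shares add up to a whole, so a higher share of PRKD3 lowers the shares of the others.

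The Res libraries differed from each other more than the Ctrl libraries did. Of the 10 genes, 9 were higher in Res replicate 1 than in Res replicate 2, PRKD2 being the exception, and 66.1% of all genes tested were. The median size of the gap on the log2(FPKM + 1) scale was 0.376 between Res libraries and 0.163 between Ctrl libraries for the 9 tested members. For all genes tested it was 0.288 between Res libraries and 0.134 between Ctrl libraries. The Res gap of PRKCI was 2.67-fold in FPKM, larger than or equal to that of 95.5% of all genes tested on the log2(FPKM + 1) scale, and that of PRKCB was 4.62-fold (94.2%). The pigment cell factor MITF had a gap the other way, at 9.64 and 31.8 FPKM in Res libraries and 35.3 and 37.4 FPKM in Ctrl libraries. Its part in these differences was not tested.

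**Figure D4:**
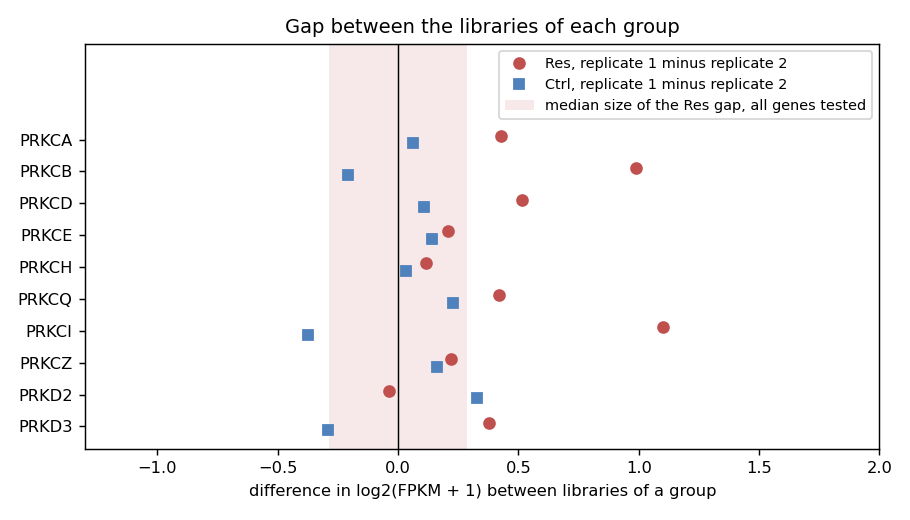
Difference in log2(FPKM + 1) between replicate 1 and replicate 2 of the Res group (red circles) and of the Ctrl group (blue squares). The shaded band shows the median size of the Res gap over all genes tested (0.288), and PRKCB and PRKCI lie farthest outside it in the Res group.

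The genes whose pattern over the 4 libraries was most like that of PRKCD, the member of highest mean level, were ZSCAN32, ARFIP2 and SLC23A2. Their centred log2(FPKM + 1) values differed from those of PRKCD by a mean of 0.0036, 0.0109 and 0.011 per library, and PRKCZ was the nearest member at 0.0876. For PRKCB, the tested member with the largest log2 fold change in size, the nearest were PSD3, TIMM23B and LDAF1 at 0.0215, 0.032 and 0.0395, and PRKCD was the nearest member at 0.197. With 4 libraries such likeness is a description only.

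Genes around the kinases were listed in 7 groups of 98 genes in all, of which 72 had values and 56 were tested. Of the 56, 0 were higher and 0 lower at a limma adjusted p under 0.05 (0.0487% and 0.00974% of all genes tested), and 5 (CYSLTR2, PLPP1, PLPP3, PHLPP1 and PEBP1) had an unadjusted p under 0.05, where 16.2% of all genes tested did. Upstream, the 7 tested genes of the Gq and phospholipase C list had a median log2 fold change of 0.03 with 4 above 0. GNAQ, which encodes a Gq alpha subunit mutated in uveal melanoma, stood at 11.7 and 12.6 FPKM in Res libraries and at 12.4 and 12.6 FPKM in Ctrl libraries. Its sister gene GNA11 stood at 6.30 and 8.54 FPKM in Res libraries and at 5.64 and 5.90 FPKM in Ctrl libraries, higher in both Res libraries (log2 fold change 0.30 ± 0.21 SE, limma adjusted p = 0.513). The phospholipase C genes PLCG1, PLCB3 and PLCB4 had log2 fold changes of -0.27 ± 0.30, 0.03 ± 0.26 and 0.13 ± 0.18 (SE). CYSLTR2, a Gq-coupled leukotriene receptor that is mutated in a few uveal melanomas, stood at 3.03 and 1.83 FPKM in Res libraries and at 0.0744 and 0.0818 FPKM in Ctrl libraries. It could pass the filter only through the Res libraries, was named after its values were seen, and did not pass (log2 fold change 1.65 ± 0.21 SE, limma adjusted p = 0.0788).

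Among the 10 tested genes that make, change or remove diacylglycerol, the median log2 fold change was 0.14 with 6 above 0. PLPP1, a lipid phosphatase that makes diacylglycerol from phosphatidic acid, stood at 31.5 and 30.4 FPKM in Res libraries and at 10.7 and 11.4 FPKM in Ctrl libraries. The Res libraries were well above the Ctrl libraries, yet it did not pass over all genes (log2 fold change 1.41 ± 0.16 SE, limma adjusted p = 0.0781). Its relative PLPP3, also named after its values were seen, stood at 3.89 and 2.97 FPKM in Res libraries and at 0.912 and 1.15 FPKM in Ctrl libraries (log2 fold change 1.12 ± 0.19 SE, limma adjusted p = 0.124), and PLPP2 had a log2 fold change of -0.05 ± 0.25 (SE). The phosphatidate phosphatases LPIN1 and LPIN2 had log2 fold changes of 0.15 ± 0.19 and 0.13 ± 0.17 (SE).

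RASGRP3, the diacylglycerol-binding exchange factor downstream of PKC in uveal melanoma, stood at 19.3 and 14.1 FPKM in Res libraries and at 22.0 and 24.2 FPKM in Ctrl libraries. It was lower in both Res libraries without passing (log2 fold change -0.46 ± 0.21 SE, limma adjusted p = 0.351). Of the 10 genes on its list 3 had values, and the 2 tested had a median log2 fold change of -0.43. The synaptic vesicle priming factor UNC13B had a log2 fold change of -0.40 ± 0.17 (SE, limma adjusted p = 0.338). It stood at 0.996 and 0.637 FPKM in Res libraries and at 1.33 and 1.44 FPKM in Ctrl libraries. UNC13B thus met the filter only through the Ctrl libraries, which ties its direction and the list median to the filter. CHN2, a RAC GTPase-activating protein, lay under the filter at 0.285 and 0.250 FPKM in Res libraries and 0.703 and 0.671 FPKM in Ctrl libraries.

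Of the 13 tested genes of PKC maturation and turnover, 6 were above 0 and 7 below, with a median log2 fold change of -0.01. The chaperones HSP90AB1 (-0.08 ± 0.12 SE) and HSP90AA1 (0.06 ± 0.29 SE), their kinase partner CDC37 (0.02 ± 0.30 SE) and the phosphatase subunit PPP2CA (0.08 ± 0.17 SE) were the most abundant. The 9 tested scaffold and polarity genes had a median of -0.18 with 3 above 0. In this list RACK1, the receptor for activated C kinase, had a log2 fold change of -0.25 ± 0.15 (SE), CDC42 -0.22 ± 0.20, SQSTM1 0.24 ± 0.25 and PARD3, the scaffold that holds atypical PKC, 0.03 ± 0.28. None of these 8 genes passed. PHLPP1, a phosphatase that dephosphorylates PKC and was named after its values were seen, stood at 2.30 and 2.08 FPKM in Res libraries and at 3.68 and 3.38 FPKM in Ctrl libraries (log2 fold change -0.50 ± 0.17 SE, limma adjusted p = 0.276).

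Of the 11 tested substrates of PKC and PKD, 3 were above 0 and 8 below, with a median log2 fold change of -0.09. MARCKS, the myristoylated membrane protein that is the textbook PKC substrate, stood at 59.9 and 79.0 FPKM in Res libraries and at 53.4 and 48.9 FPKM in Ctrl libraries, higher in both Res libraries (log2 fold change 0.42 ± 0.19 SE, limma adjusted p = 0.35). PEBP1, a RAF-binding protein that PKC phosphorylates, stood at 130 and 156 FPKM in Res libraries and at 253 and 220 FPKM in Ctrl libraries, lower in both Res libraries (log2 fold change -0.73 ± 0.16 SE, limma adjusted p = 0.165). MARCKSL1 and the adducin ADD3 had log2 fold changes of 0.14 ± 0.19 and -0.56 ± 0.49 (SE). Among related kinases, the PKC-like kinases PKN2 and PKN3 had log2 fold changes of -0.04 ± 0.37 and -0.47 ± 0.19 (SE).

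**Figure D5:**
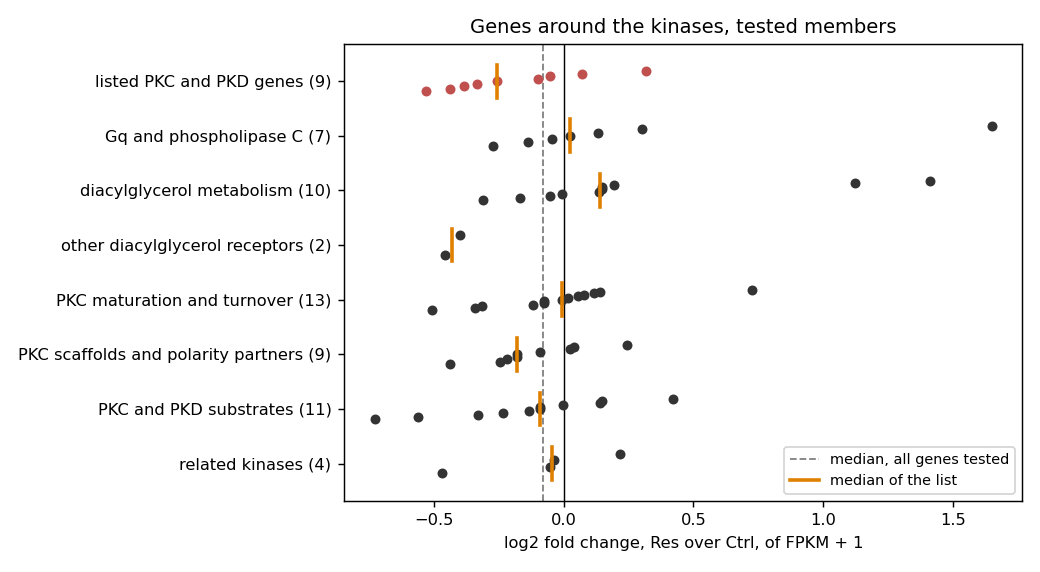
Log2 fold change of FPKM + 1, Res over Ctrl, of the 9 tested PKC and PKD genes (red) and of the tested genes of 7 lists around them (black), with the median of each list as an orange bar and that of all genes tested (-0.08) as a dashed line. CYSLTR2, PLPP1 and PLPP3 are the 3 points above 1.

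The sum of FPKM was 292736 and 293481 in Res libraries and 282602 and 283387 in Ctrl libraries, and true depth is unknown. Cells of both groups carried pigment cell markers, with all 7 melanocyte markers valued and a summed level of 2990 and 2260 FPKM in Res libraries and 2580 and 2300 FPKM in Ctrl libraries. Within that list DCT, a melanin synthesis enzyme, stood at 0.486 and 0.517 FPKM in Res libraries and 4.88 and 5.46 FPKM in Ctrl libraries, and the lineage factor SOX10 at 54.9 and 54.3 FPKM in Res libraries and 91.8 and 73.3 FPKM in Ctrl libraries. Neither passed (limma adjusted p = 0.0544 and 0.228), and DCT met the filter only through the Ctrl libraries. TYRP1 went the other way, at 2143 and 1514 FPKM in Res libraries and 1490 and 1484 FPKM in Ctrl libraries. The groups overlapped for TYR, MLANA and PMEL, with log2 fold changes of 0.28 ± 0.23, -0.04 ± 0.12 and -0.41 ± 0.25 (SE). The 3 of 7 epithelial markers with values (KRT8, KRT18 and KRT19) summed to 9.39 and 17.7 FPKM in Res libraries and 3.12 and 3.91 FPKM in Ctrl libraries. The 2 of 6 leukocyte markers with values (CD68 and LCP1) summed to 13.2 and 10.7 FPKM in Res libraries and 32.6 and 27.4 FPKM in Ctrl libraries. The defining leukocyte marker PTPRC, also on this list, had no value. The 3 of 6 fibroblast markers with values summed to 9.59 and 7.34 FPKM in Res libraries and 5.20 and 6.01 FPKM in Ctrl libraries. The 3 of 4 markers of the retinal pigment epithelium with values summed to 4.48 and 3.08 FPKM in Res libraries and 5.29 and 4.69 FPKM in Ctrl libraries, and no endothelial marker of 4 had a value. Their part in the levels of PRKCB, PRKCQ and the other members was not tested.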

How the data were processed

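RNA sequencing of 2 Res and 2 Ctrl libraries was deposited as FPKM, 1 value per gene and library, per the file headers. The labels' protocols give a phenol-based extraction, poly(A) selection or ribosomal RNA removal (the sources used here do not say which for which library) and a stranded dUTP kit. The genome build is hg38 per the submitters' processing notes. The sources used here do not give the aligner, counting program, annotation or use of strand. In every gene the higher group mean was at least 0.5009 FPKM.

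Of 11650 identifiers, 11575 matched the table of current gene names and 11596 GENCODE release 29. FPKM are not counts, and low values gave no clear step of 1 fragment (at most 5 of 46 low single-transcript genes shared a 1% window), so depth and intervals from counts are not given. The 10271 genes averaging 1 FPKM or more were tested on log2(FPKM + 1), two-sided, by limma 3.58.1 with a variance trend in R 4.3.3, with Benjamini-Hochberg adjustment over all of them at 0.05. This scale understates changes of low genes, and the filter can pass a gene through 1 group alone. Summaries were made in Python 3.11.15. The gene test was tested on simulated data with the same spread in both groups. In the real data the Res libraries differed more than the Ctrl libraries, so the simulation does not cover that setting.

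Members and lists were chosen with earlier results of these data known. Named were all 10 genes, of each list members past the threshold and the 4 of highest mean FPKM, 6 fixed genes (GNAQ, GNA11, PLCB4, RASGRP3, MARCKS, PRKD1) and the 3 genes nearest to each of 2 members. Some genes of the lists are not reported here. Alternatives were pseudocounts, filters, scalings, variance models, the replicate number as a block and leaving out each library.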

Additional observations from a re-analysis of the deposited data

How the results depend on the processing

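Over 111 alternative fits of the listed genes, 0 gave a limma adjusted p under 0.05, with a range of 0.0701 (PRKCB without Res replicate 1) to 0.999 and no value under 0.307 while all 4 libraries were kept. Direction turned in 5 of the 111: PRKCA with median-of-ratios scaling (0.0095) and without Res replicate 2 (0.162), PRKCE without Res replicate 2 (0.00654), and PRKCI without Res replicate 1 (-0.48) and without Ctrl replicate 1 (-0.117). Leaving out 1 library each gave ranges of -0.266 to 0.162 for PRKCA, -0.202 to 0.00654 for PRKCE and -0.48 to 0.622 for PRKCI. The causes were not tested. PRKCQ was fitted only with no filter, and at a mean of at least 5 FPKM only PRKCD and PRKD3 remained. The median log2 fold change of all genes was -0.12 with a common sum, -0.012 after quantile normalization and 0.0088 under median-of-ratios scaling.

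Over all genes, 5 were higher and 1 lower in the Res libraries. With a pseudocount of 0.1, median-of-ratios scaling, quantile normalization or library weights 3 were higher, and without 1 library 0 to 19 were higher (0 without Res replicate 1 or 2) and 0 to 10 lower. The replicate number was not shown to pair the libraries (the differences between replicates correlated at -0.0709 across genes between the groups). As a replicate block it gave 4 higher and 1 lower genes and called no listed gene.

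Without 1 library, the log2 ratio of summed FPKM ran from -1.08 to 0.101 for the classical, -0.623 to -0.151 for the nPKC, -0.692 to 0.435 for the atypical and -0.0417 to 0.281 for the PKD genes, and from -0.46 to 0.0921 for all 10, each lowest without Res replicate 1 and highest without Res replicate 2. With PRKD1 added the PKD ratio was 0.152. The number of listed genes lower in every Res than in every Ctrl library was 5 to 9 without 1 library (9 without Res replicate 1), and of those higher 0 to 3. Under median-of-ratios scaling or quantile normalization, 1 (PRKD3) was higher. These counts and the PRKD1 sum were alternatives chosen after seeing the data. For the counts without 1 library and for those under another scaling, the matching shares of all genes were not computed. A lack of overlap comes more easily with fewer libraries, and 66.1% of all genes tested were higher in Res replicate 1 than in Res replicate 2. The 9 genes without Res replicate 1 therefore cannot be read as a trait of these families.

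List medians without 1 library ran from -0.0464 to 0.252 for Gq and phospholipase C, -0.069 to 0.184 for diacylglycerol metabolism, -0.605 to -0.251 for other diacylglycerol receptors, -0.11 to -0.0111 for maturation (0.0782 with median-of-ratios scaling), -0.238 to -0.106 for scaffolds (-0.0906 at a mean of at least 5 FPKM), -0.125 to 0.168 for substrates and -0.324 to 0.132 for related kinases. The filter was applied anew in each fit without 1 library, so the members of some lists changed. Without Ctrl replicate 2, other diacylglycerol receptors held 1 gene and diacylglycerol metabolism 12. These ranges are therefore not all medians of the same genes. With 2 libraries a group, large differences also missed the adjusted threshold, such as PLPP1 at a log2 fold change of 1.41 and a limma adjusted p of 0.0781.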
